A study of Mus musculus with 10 samples.

Results

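The genes described here are 9 regulators of protein breakdown in skeletal muscle. Trim63, Fbxo32, Fbxo30, Fbxo31 and Cblb encode ubiquitin ligases or their substrate-binding subunits, Foxo1, Foxo3 and Klf15 encode transcription factors, and Eda2r encodes a receptor of the tumour necrosis factor receptor family. They were taken by gene symbol from a deposited table of 21956 genes, all 9 symbols were found, and all 9 were among the 13404 genes that passed the filter on low counts. RNA of the gastrocnemius, a large calf muscle, was sequenced in 10 samples from wild-type mice, 5 labelled Sham and 5 labelled HLI. HLI was taken to mean hindlimb ischaemia, an abbreviation the labels leave unexpanded. The labels give no strain, age, sex, time after surgery or limb. Whether each sample came from its own animal is not stated either, so the p-values below measure sample-to-sample spread only, which could be technical.

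A muscle fibre loses protein when its ubiquitin-proteasome system tags contractile and regulatory proteins faster than they are replaced. MuRF1, the product of Trim63, is a RING-type ligase of the sarcomere. Atrogin-1, the product of Fbxo32, is an F-box protein, the part of an SCF ligase that selects the substrate. Both are classical markers of atrophy and are transcribed under the control of FOXO proteins, which insulin-like growth factor signalling through AKT holds outside the nucleus. Glucocorticoids raise the transcription of both ligases and of Klf15. Because the factors are governed largely by phosphorylation and location, the level of a Foxo transcript does not give the activity of its protein.

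Promoter sequences from RefSeq (build GRCm38.p6) were matched by symbol for 8 of the 9 genes, with no entry for Fbxo32. The 250 bases before the transcription start are shown, 5′ to 3′ on the strand of the gene, for Trim63, Klf15 and Fbxo31, of which Fbxo31 correlated with each of the other two across the libraries, and for Eda2r, which shares a motif with Trim63. Capitals mark matches on either strand to 4 motifs: the FOXO core GTAAACA, the glucocorticoid receptor motif AGAACA, the E-box CACGTG and the TATA motif TATAAA.
Trim63, chr4:134314870-134315119, plus strand: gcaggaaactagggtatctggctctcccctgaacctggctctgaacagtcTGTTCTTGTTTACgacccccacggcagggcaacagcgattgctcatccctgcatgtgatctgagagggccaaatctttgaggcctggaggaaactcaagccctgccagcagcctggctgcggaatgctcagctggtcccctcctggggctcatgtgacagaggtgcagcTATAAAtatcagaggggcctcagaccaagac
Eda2r, chrX:97377210-97377459, minus strand: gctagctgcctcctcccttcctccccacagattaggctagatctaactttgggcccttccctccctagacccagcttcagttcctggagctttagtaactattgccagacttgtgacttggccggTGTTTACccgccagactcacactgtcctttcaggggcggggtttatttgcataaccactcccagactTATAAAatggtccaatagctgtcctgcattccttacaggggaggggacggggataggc
Klf15, chr6:90462326-90462575, plus strand: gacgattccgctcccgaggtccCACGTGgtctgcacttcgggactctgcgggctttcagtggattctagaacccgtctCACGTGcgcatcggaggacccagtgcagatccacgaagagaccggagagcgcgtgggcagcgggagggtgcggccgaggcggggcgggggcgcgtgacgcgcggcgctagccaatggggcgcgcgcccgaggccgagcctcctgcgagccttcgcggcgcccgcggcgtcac
Fbxo31, chr8:121578807-121579056, minus strand: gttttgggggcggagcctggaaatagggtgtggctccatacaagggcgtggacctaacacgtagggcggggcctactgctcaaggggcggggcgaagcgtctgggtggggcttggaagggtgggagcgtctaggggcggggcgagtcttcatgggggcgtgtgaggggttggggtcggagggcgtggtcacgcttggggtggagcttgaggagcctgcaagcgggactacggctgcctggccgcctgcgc

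In the Trim63 window the glucocorticoid receptor motif (read as TGTTCT, bases 200 to 195 before the start) directly preceded the FOXO core (read as TGTTTAC, bases 194 to 188), with no overlap. The pair was followed by a TATA motif 31 to 26 bases before the start. The Eda2r window held the FOXO core at bases 125 to 119 and a TATA motif at bases 58 to 53. Klf15 held 2 E-boxes, and none of the 4 motifs was found in the Fbxo31 window, nor in those of Fbxo30, Cblb, Foxo1 and Foxo3. Of all 32851 promoter windows of this length, 3.17% held the FOXO core, 16.1% the glucocorticoid receptor motif, 6.02% the E-box and 12.4% the TATA motif. These matches describe the letters and not occupied sites.

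The estimated counts summed to between 16556385 and 22136299 per library, and each of the 9 genes had at least 167 counts in every library. Of the 8 muscle fibre markers, such as Acta1 and Ckm, 8 were present in every library, and they summed to between 116925 and 150132 TPM in Sham and between 71979 and 123720 TPM in HLI, with the lowest value in HLI replicate 3. TPM is a relative abundance corrected for gene length. The 9 macrophage markers summed to between 598 and 1724 TPM in Sham and between 808 and 4182 TPM in HLI, with 9 of 9 present in every library. The 6 markers of fibro-adipogenic progenitors summed to 2829 to 3874 TPM in Sham and 2119 to 8116 TPM in HLI. For the 5 adipocyte markers the sums were 803 to 1116 and 705.5 to 1223 TPM. Myh3, an embryonic myosin gene of newly formed fibres, was at 164 CPM (a count relative to the library size after TMM scaling) in Sham replicate 1 and at 7.71 CPM in HLI replicate 1. It ranged from 3.97 to 5.63 CPM in the remaining Sham libraries and from 80.0 to 442 CPM in the remaining HLI libraries. Myh8, another myosin gene, was at 78.2 CPM in Sham replicate 1 and at 1.65 CPM in HLI replicate 1. It ranged from 1.43 to 3.11 CPM in the remaining Sham libraries and from 62.5 to 695 CPM in the remaining HLI libraries. Sham and HLI replicates numbered 1 were thus unlike the rest of their groups in both genes. The results for Trim63, Fbxo32, Fbxo31 and Klf15 are also given without those libraries.

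By TPM, Trim63 was the most abundant of the 9 genes, with 227 ± 79.2 TPM in Sham and 153 ± 65.7 TPM in HLI (SD, n = 5). Fbxo31 followed with 58.8 ± 9.63 and 41.4 ± 10.5 TPM, and Fbxo32 with 59.9 ± 23.2 and 38.5 ± 13.9 TPM. The TPM of Trim63 exceeded that of Fbxo31 in 10 of 10 libraries, with no overlap of their ranges, whereas Fbxo31 and Fbxo32 did not differ beyond their spread. The other 6 genes lay close together, with means over all libraries from 8.10 TPM for Fbxo30 to 11.9 TPM for Klf15. Every neighbouring pair among these 6 overlapped in range. Foxo3 averaged 11.8 TPM, Eda2r 11.0 TPM, Foxo1 9.67 TPM and Cblb 8.18 TPM over the 10 libraries.

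HLI was set against Sham to ask which of these transcripts differ between the conditions. None of the 9 genes passed the quasi-likelihood test of edgeR (adjusted p from 0.290 to 0.922, by Benjamini-Hochberg over all 13404 genes), and percent called was 0.0% of all genes tested. At an unadjusted edgeR p under 0.05, 3 of the 9 genes (Fbxo32, Fbxo31 and Klf15) were lower in HLI and 0 were higher. Of all genes 6.15% were lower and 10.7% higher, or 2262 genes (16.9%) in either direction. A log2 fold change as low as that of Fbxo31 or lower is a limit taken from a measured value. It was held by 3 of the 9 (Trim63, Fbxo32 and Fbxo31) and by 1.87% of all genes. Fbxo31 meets that limit by definition, and the 9 genes were chosen with earlier results of these data known. The contrasts with 1.87% and with 6.15% are therefore not tests. DESeq2 called 48 genes, or 0.341% of those it tested, and 0 of the 9. Without Sham and HLI replicates numbered 1, edgeR called 54 genes and again 0 of the 9. The values split the genes in 2 by size: Trim63, Fbxo32, Fbxo31 and Klf15 had log2 fold changes between -0.80 and -0.56, and the other 5 between -0.07 and 0.19. Fewer fibres and less RNA of a gene per fibre cannot be told apart in such bulk samples.

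**Figure D1:**
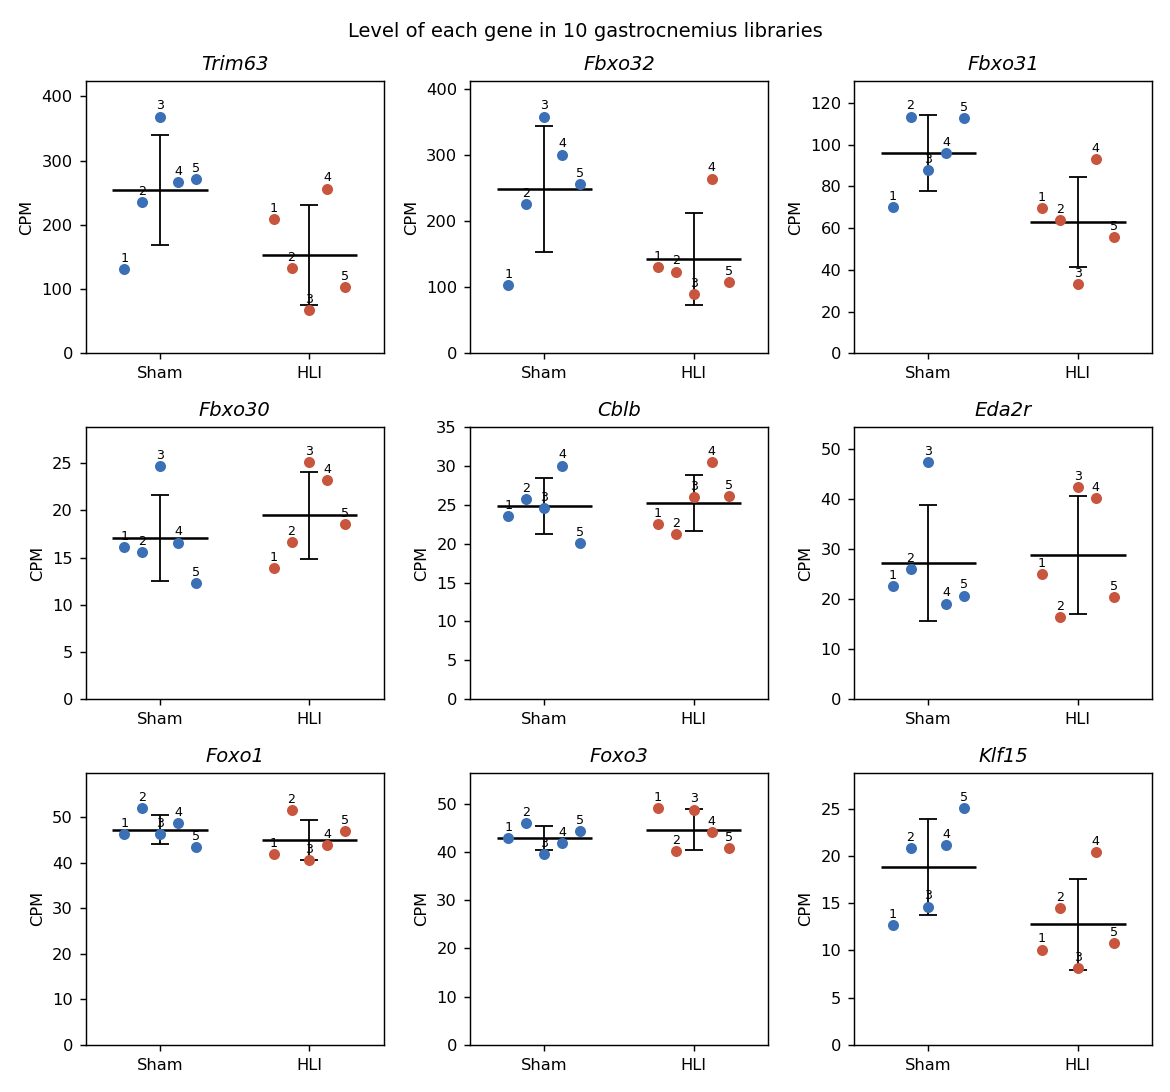
Level of each of the 9 genes in CPM (vertical axes, from 0) in the 5 Sham (blue) and 5 HLI (red) libraries. Numbers are replicate labels, horizontal lines are means and bars are SD. Trim63, Fbxo32, Fbxo31 and Klf15 have lower means in HLI, with HLI replicate 4 inside the Sham range in each.

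Trim63 stood at 131, 235, 369, 266 and 271 CPM in Sham replicates 1 to 5 and at 209, 132, 66.8, 256 and 103 CPM in HLI replicates 1 to 5. All 5 HLI libraries were below the Sham median, but the groups overlapped: HLI replicates 3 and 5 were below every Sham library, and HLI replicate 2 was level with Sham replicate 1. The means were 254 ± 85.3 and 153 ± 77.7 CPM (SD, n = 5). The log2 fold change was -0.73 (SE 0.35, edgeR adjusted p = 0.304, exact two-sided permutation p = 0.0794). Without HLI replicate 4 it was -1.002 (edgeR adjusted p = 0.0922), and without Sham and HLI replicates numbered 1 it was -1.03 (edgeR adjusted p = 0.185). It was -0.54 without HLI replicate 3 and -0.57 without Sham replicate 3 (edgeR adjusted p = 0.582 and 0.358).

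Fbxo32 stood at 104, 226, 358, 301 and 256 CPM in Sham and at 130.2, 124, 89.7, 265 and 107 CPM in HLI. HLI replicate 4 lay among Sham replicates 2 to 5, and Sham replicate 1 lay among the other HLI libraries. The means were 249 ± 95.4 and 143 ± 69.7 CPM (SD, n = 5), and the log2 fold change was -0.80 (SE 0.34, edgeR adjusted p = 0.292, exact two-sided permutation p = 0.127). Without Sham and HLI replicates numbered 1 it was -0.96 (edgeR adjusted p = 0.178). Without HLI replicate 4 it was -1.15 and without Sham replicate 3 it was -0.64 (edgeR adjusted p = 0.0813 and 0.301).

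Fbxo31, whose protein is an F-box subunit known from cell cycle control, stood at 70.2, 114, 87.9, 95.9 and 113 CPM in Sham and at 69.5, 63.8, 33.3, 93.0 and 55.8 CPM in HLI. Here 4 of 5 HLI libraries were below every Sham library, the exception being HLI replicate 4. The log2 fold change was -0.61 (SE 0.23, edgeR adjusted p = 0.290, exact two-sided permutation p = 0.0317 where the smallest possible is 0.0079). Without Sham and HLI replicates numbered 1 it was -0.74 (edgeR adjusted p = 0.190). It was -0.80 without HLI replicate 4 and -0.45 without HLI replicate 3 (edgeR adjusted p = 0.0813 and 0.567). Fbxo31 was the 1 gene of the 9 with a permutation p under 0.05, both on log2 CPM and on log2(TPM + 1). That p was not adjusted over the 9 genes, and the share of all genes under 0.05 in that test was not computed. By edgeR, 16.9% of all genes had an unadjusted p under 0.05, so the value does not set Fbxo31 apart.

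Fbxo30, which encodes the F-box protein MUSA1 that bone morphogenetic protein signalling is known to restrain in muscle, did not share this direction. It stood at 16.1, 15.5, 24.7, 16.6 and 12.3 CPM in Sham and at 13.9, 16.7, 25.1, 23.2 and 18.5 CPM in HLI. Sham replicate 3 and HLI replicates 3 and 4 were the highest libraries, so the groups overlapped over almost their whole range. The log2 fold change was 0.19 (SE 0.20, edgeR adjusted p = 0.585).

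Cblb, whose product is a RING-type ligase that targets the insulin receptor substrate IRS1 in unloaded muscle, varied little, with 20.1 to 30.1 CPM in Sham and 21.3 to 30.5 CPM in HLI. Its log2 fold change was 0.03 (SE 0.13, edgeR adjusted p = 0.922). With TPM rescaled by the median of ratios the value was -0.05, so no direction can be given.

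Eda2r, a receptor for the ectodysplasin isoform EDA-A2 that has been tied to muscle wasting in tumour-bearing mice, stood at 22.6, 25.9, 47.3, 19.1 and 20.7 CPM in Sham. In HLI it stood at 25.0, 16.3, 42.3, 40.2 and 20.4 CPM. The libraries fell into a high set of 3, at 40.2 to 47.3 CPM, and a low set of 7, at 16.3 to 25.9 CPM, and both sets held libraries of both groups. The 3 high libraries, Sham replicate 3 and HLI replicates 3 and 4, were also the 3 highest for Fbxo30. The log2 fold change of Eda2r was 0.09 (SE 0.31, edgeR adjusted p = 0.881), with 0.38 when Sham replicate 3 was left out and -0.09 when HLI replicate 3 was.

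On the CPM scale the FOXO genes had the smallest spread of the 9. Foxo1 lay between 43.3 and 52.0 CPM in Sham and between 40.5 and 51.6 CPM in HLI, and its coefficient of variation over all 10 libraries was 8.36%. Foxo3 lay between 39.5 and 46.0 CPM in Sham and between 40.2 and 49.0 CPM in HLI, with a coefficient of variation of 7.73%. On TPM the coefficient was 10.8% for Foxo1, 14.2% for Cblb and 17.6% for Foxo3, so the place of Foxo3 depends on the scaling. On CPM the coefficient was 45.9% for Trim63 and 49.2% for Fbxo32, both transcribed under FOXO control. The log2 fold changes were -0.07 (SE 0.10) for Foxo1 and 0.06 (SE 0.09) for Foxo3, with edgeR adjusted p of 0.665 and 0.737. The value of Foxo1 was 0.11 on unscaled TPM, a scale that put the median gene at 0.19, and -0.08 on TPM rescaled by the median of ratios. Its sign thus depends on the scaling, but on neither of these TPM scales was Foxo1 above the median gene.

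Klf15, a zinc finger factor that glucocorticoids induce and that promotes the breakdown of branched-chain amino acids, stood at 12.7, 20.8, 14.6, 21.1 and 25.0 CPM in Sham. In HLI it stood at 10.1, 14.5, 8.13, 20.4 and 10.8 CPM. HLI replicates 1, 3 and 5 were below every Sham library, and HLI replicate 4 was among the higher Sham libraries. The log2 fold change was -0.56 (SE 0.26, edgeR adjusted p = 0.296, exact two-sided permutation p = 0.0714), with -0.81 without HLI replicate 4 and -0.44 without HLI replicate 3 (edgeR adjusted p = 0.0814 and 0.582). Leaving out Sham and HLI replicates numbered 1 gave -0.60 (edgeR adjusted p = 0.244). Without HLI replicate 4, 14.5% of all genes were lower at an unadjusted p under 0.05 and 0.0% passed the adjusted threshold.

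**Figure D2:**
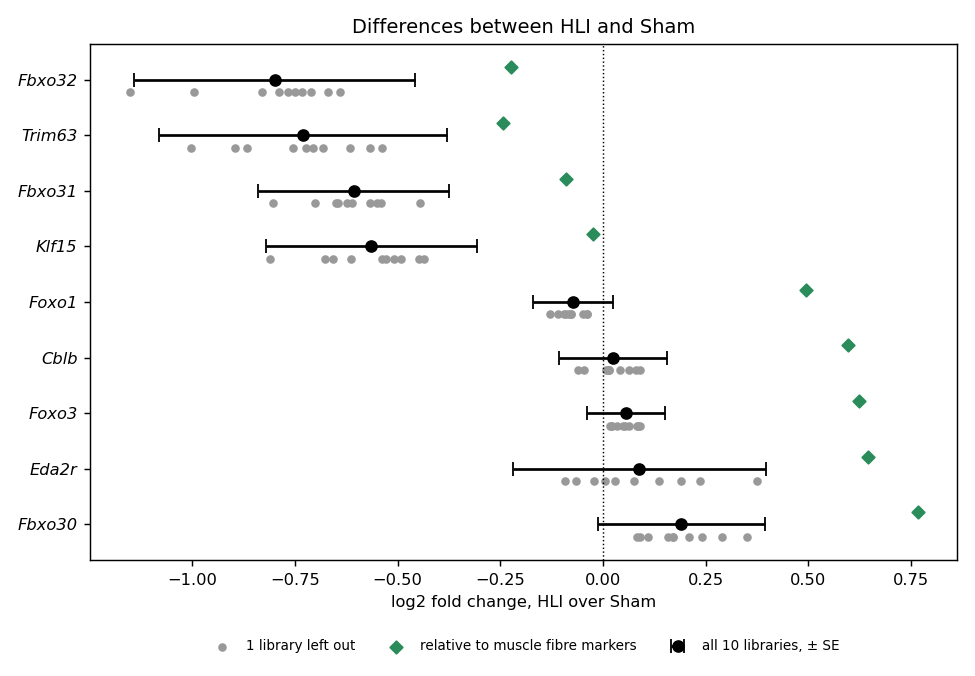
Log2 fold change of HLI over Sham for the 9 genes (horizontal axis). Black points with bars are the edgeR values ± SE from all 10 libraries, grey points leave out 1 library each, and green diamonds are differences in the log2 ratio of the gene to the summed muscle fibre markers. The 4 genes at the top lie between -0.80 and -0.56 in the full fit and between -0.24 and -0.02 relative to the fibre markers.

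Across single libraries, 4 of the 36 pairs of genes correlated at an adjusted p under 0.05 (log2 CPM, n = 10, permutation test with 100000 resamples, two-sided, Benjamini-Hochberg over the 36 pairs). The closest pair was Trim63 and Fbxo32, with Pearson r = 0.92 (permutation p = 8e-05, adjusted p = 0.00288) and Spearman rho = 0.95 (permutation p = 0.00012, adjusted p = 0.00432). Without the 2 libraries farthest from the median of Trim63, HLI replicates 3 and 5, r was 0.93, and after removal of the group means it was 0.89. The mean TPM ratio of Trim63 to Fbxo32 was 3.90 ± 0.50 in Sham and 3.95 ± 1.19 in HLI (SD, n = 5, exact two-sided permutation p = 0.944 on log2 ratios). The ratio was lowest in HLI replicate 3, at 2.75, and highest in HLI replicate 1, at 5.93.

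Fbxo31 and Klf15 formed a second close pair, with r = 0.90 (permutation p = 0.00017, adjusted p = 0.00306), rho = 0.90 (permutation p = 0.00095, adjusted p = 0.0171) and r = 0.89 without Sham replicate 2 and HLI replicate 3. Trim63 and Fbxo31 had r = 0.89 (permutation p = 0.00059, adjusted p = 0.00708) and rho = 0.77 (permutation p = 0.013, adjusted p = 0.117). That relation rests in part on HLI replicates 3 and 5, without which r was 0.69 (permutation p = 0.0599). Fbxo32 and Fbxo31 had r = 0.81 (permutation p = 0.00233, adjusted p = 0.021), rho = 0.70 (permutation p = 0.0312, adjusted p = 0.187), and r = 0.88 without Sham replicate 3 and HLI replicate 3. After removal of the group means this pair no longer passed (r = 0.71, adjusted p = 0.16), nor did it without any 1 of Sham replicates 4 and 5 and HLI replicates 3 and 4. Without HLI replicate 3 alone, 1 of the 36 pairs passed, that of Trim63 and Fbxo32.

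On log2 CPM, neither FOXO gene followed the ligases across libraries. Foxo1 had r = 0.20 with Trim63 (permutation p = 0.581, adjusted p = 0.774; rho = 0.15, permutation p = 0.682, adjusted p = 0.943), and -0.27 without HLI replicates 3 and 5. Foxo3 had r = -0.24 with Trim63 (permutation p = 0.512, adjusted p = 0.774; rho = -0.24, permutation p = 0.516, adjusted p = 0.913), and -0.02 without the same libraries. On log2(TPM + 1) these r were -0.67 and -0.54, so the sign for Foxo1 depends on the scaling. On that scale Foxo1 and Foxo3 had r of -0.65 and -0.57 with Fbxo32 and of -0.68 and -0.72 with Fbxo31. With Fbxo30 they had 0.47 and 0.61, and with Cblb 0.45 and 0.58. How the FOXO genes vary with the ligases thus depends on the scaling. Between Foxo1 and Foxo3, r was -0.60 on log2 CPM and 0.54 on log2(TPM + 1), so the sign depends on the scaling. Fbxo30 and Eda2r had r = 0.78 (permutation p = 0.00958, adjusted p = 0.069) and rho = 0.43 (permutation p = 0.22, adjusted p = 0.697). On log2 CPM r was 0.51 without Sham replicate 3 and HLI replicate 3, so the relation there rests largely on those high libraries. On log2(TPM + 1) r was 0.82 over all libraries, and it was not computed without those libraries.

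**Figure D3:**
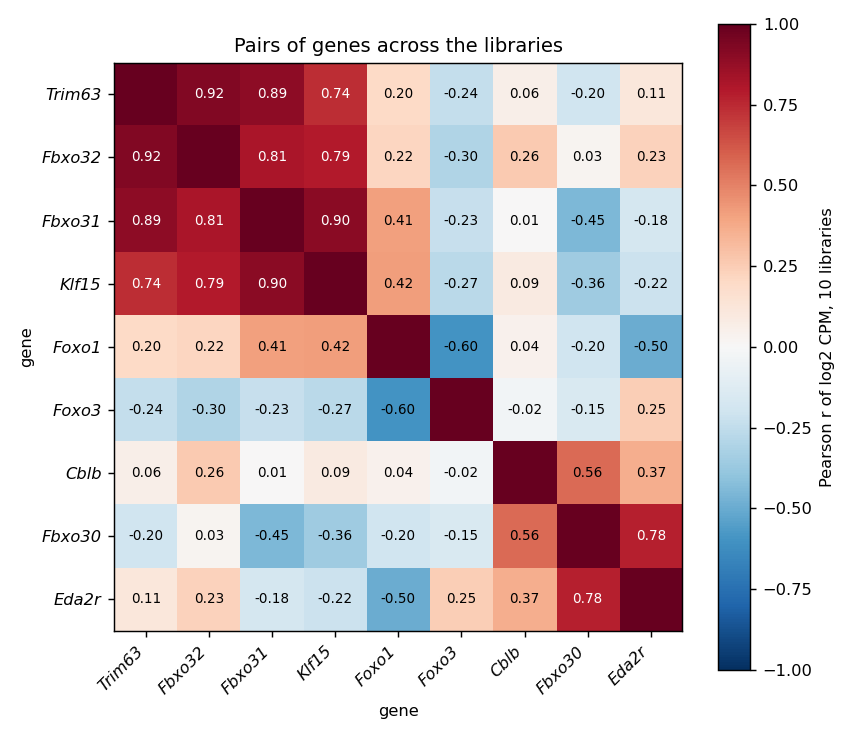
Pearson r of log2 CPM over the 10 libraries for each pair of the 9 genes, as colour and number (red positive, blue negative). The block of Trim63, Fbxo32, Fbxo31 and Klf15 holds values from 0.74 to 0.92, and Foxo1 and Foxo3 have values between -0.30 and 0.42 with these 4 genes.

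The same 4 genes correlated with the summed muscle fibre markers, Trim63 and Fbxo32 less stably than the other two. The log2 summed CPM of the 8 fibre markers was lower in HLI by a mean of 0.57, from 17.2 in Sham to 16.6 in HLI (exact two-sided permutation p = 0.0317). Over the 10 libraries its Pearson r was 0.96 with Fbxo31 and 0.90 with Klf15 (permutation p = 4e-05 and 3e-05, each with adjusted p = 0.00018 over the 9 genes), with rho of 0.96 and 0.94 (permutation p = 7e-05 and 0.00021). Without Sham replicate 5 and HLI replicate 3, the libraries farthest from the median, these r were 0.90 and 0.96. With Trim63 r was 0.80 (permutation p = 0.00498, adjusted p = 0.0149; rho = 0.71, permutation p = 0.0278), and with Fbxo32 it was 0.71 (permutation p = 0.00784, adjusted p = 0.0176; rho = 0.60, permutation p = 0.0742). Without those libraries they were 0.56 and 0.67, and on log2(TPM + 1) they were 0.59 and 0.45 (adjusted p = 0.0818 and 0.191, permutation test). Without HLI replicate 3 alone neither passed, with r of 0.60 and 0.68 (adjusted p = 0.208 and 0.146, permutation test), and Fbxo32 did not pass without Sham replicate 4 (r = 0.69, adjusted p = 0.0513). Both values of a pair share the library and its scaling. The fibre sum and these 4 genes were all lower in HLI, so r over the 10 libraries includes the group difference. With the fibre sum, r after removal of the group means was not computed.

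Relative to the summed fibre markers, the difference of HLI minus Sham on the log2 scale was -0.09 for Fbxo31 (SE 0.09) and -0.02 for Klf15 (SE 0.15), with exact two-sided permutation p of 0.325 and 0.865. It was -0.24 for Trim63 (SE 0.31) and -0.22 for Fbxo32 (SE 0.34), with exact permutation p of 0.452 and 0.532. On this scale the other 5 genes had positive differences, of 0.50 for Foxo1, 0.60 for Cblb, 0.62 for Foxo3, 0.65 for Eda2r and 0.77 for Fbxo30. In that order the SE were 0.24, 0.29, 0.29, 0.52 and 0.41. The unadjusted exact two-sided permutation p were 0.0556, 0.0397, 0.0317, 0.262 and 0.0714. The fibre sum itself differed by -0.57, so a gene of equal CPM in both groups lies above 0 by that amount on this scale. The part of other cell types in these differences was not tested. The macrophage marker sum was highest in HLI replicates 1 and 3, at 3924 and 4182 TPM.

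**Figure D4:**
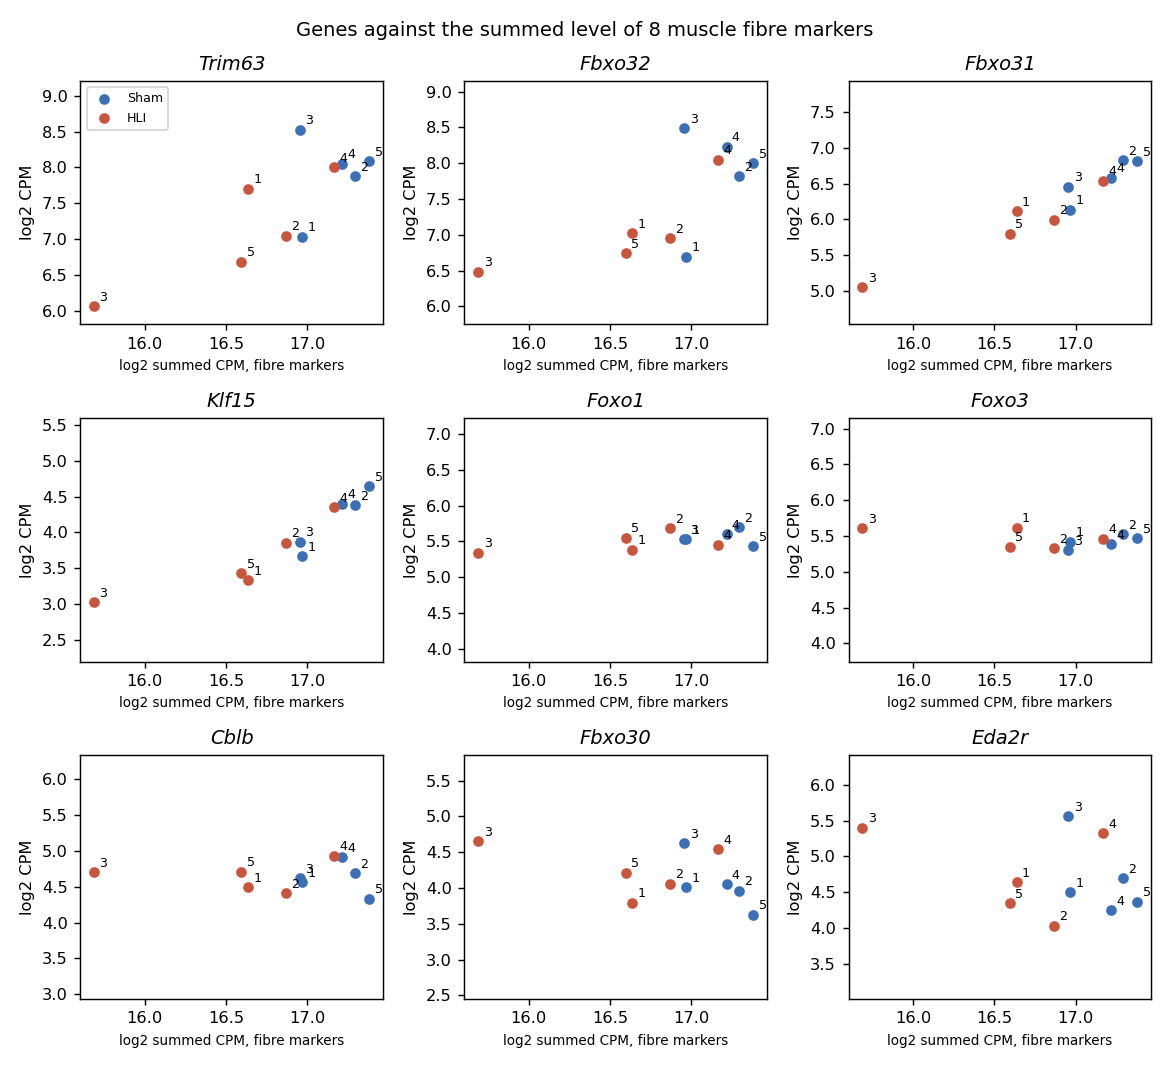
Log2 CPM of each of the 9 genes (vertical axes, each spanning the same range) against the log2 summed CPM of 8 muscle fibre markers (horizontal axes) in the Sham (blue) and HLI (red) libraries, numbered by replicate. Fbxo31 and Klf15 follow the fibre markers most closely, with r of 0.96 and 0.90, and HLI replicate 3 has the lowest fibre sum.

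For 5 of the 9 genes, the 3 most similar genes by Pearson r of log2 CPM over the 10 libraries were taken from 8837 genes with a mean of at least 10 CPM. These ranks describe these libraries and carry no test. Nearest to Trim63 were Wipf3 (r = 0.96), Twf2 (r = 0.95) and Zwint (r = 0.95). Nearest to Fbxo32 were Lrrc2 (r = 0.96), Gpcpd1 (r = 0.95) and Clip1 (r = 0.95). Eda2r was most like Plaa (r = 0.92), Hspa4 (r = 0.92), an HSP70-family chaperone gene, and Cdk8 (r = 0.92). Foxo3 was most like Mfsd11 (r = 0.92), Phf13 (r = 0.90) and Tsen34 (r = 0.87), and Foxo1 was most like Timp3, Ankrd11 and Czib (r = 0.86, 0.86 and 0.85).

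Among 20 other ubiquitin ligase genes of muscle, 0 passed the edgeR test, 14 had values below 0 and the median log2 fold change was -0.09, against 0.03 over all genes tested. Trim54, which encodes the MuRF3 paralogue of MuRF1, averaged 188 ± 36.5 CPM in Sham against 115 ± 42.2 CPM in HLI (SD over 5 libraries), and its log2 fold change was -0.71 (SE 0.26). Asb2, the substrate receptor of a cullin ligase, had 805 ± 207 and 445 ± 177 CPM (log2 fold change -0.86, SE 0.30), and Mul1, a mitochondrial ligase, had 36.5 ± 4.76 and 29.0 ± 4.98 CPM. In the ubiquitin and SCF core list, 12 of 15 genes had values below 0, 0 passed and the median was -0.19, while 6194 of all 13404 genes were below 0. The median was -0.10 without HLI replicate 3. On unscaled TPM it was -0.0054, below the median of all genes on that scale, 0.19. Skp1, the adaptor that holds F-box proteins in the SCF complex, averaged 216 ± 21.0 CPM in Sham against 178 ± 25.9 CPM in HLI, and Usp19, a deubiquitinase gene of muscle, had 154 ± 25.1 and 124 ± 15.9 CPM. The edgeR adjusted p of these 5 genes lay between 0.290 and 0.294.

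Upstream of the FOXO factors, 0 of 19 regulators and partners passed the edgeR test, and their median log2 fold change was -0.04. Igf1r, the receptor for insulin-like growth factor 1, was the 1 named gene of these lists whose groups did not overlap: it lay between 20.6 and 23.8 CPM in Sham and between 24.5 and 27.1 CPM in HLI (log2 fold change 0.25, SE 0.09, edgeR adjusted p = 0.290). Over all genes, 0.776% had every HLI library above every Sham library. Foxo4, the third FOXO factor of muscle, averaged 69.8 ± 9.82 CPM in Sham against 52.9 ± 9.19 CPM in HLI, and Akt2, the AKT kinase of insulin signalling, had 263 ± 21.4 and 214 ± 31.1 CPM.

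Of 22 FOXO target genes 0 passed the edgeR test, 13 had values below 0 and the median was -0.17. Map1lc3b and Ulk1, genes of autophagosome formation, had 195 ± 17.6 and 82.7 ± 13.9 CPM in Sham and 161 ± 18.1 and 63.9 ± 11.9 CPM in HLI. Bcl2l11, which encodes the pro-apoptotic protein BIM, had 15.96 ± 2.16 and 21.5 ± 5.87 CPM, in the other direction. Of 15 measured glucocorticoid and KLF15 target genes 0 passed and the median was 0.02. That median was -0.18 without Sham replicate 1 or without HLI replicate 1, -0.29 without both and 0.11 without HLI replicate 3, so its sign rests on single libraries. Bcat2, an enzyme of branched-chain amino acid breakdown that KLF15 induces, averaged 44.4 ± 6.66 CPM in Sham against 31.8 ± 5.24 CPM in HLI (log2 fold change -0.48, SE 0.14). Zbtb16 had 46.5 ± 5.81 and 31.3 ± 9.57 CPM, whereas Ddit4, an inhibitor of mTORC1 that glucocorticoids and hypoxia induce, had 8.11 ± 1.06 and 15.1 ± 8.75 CPM. The edgeR adjusted p of these named genes lay between 0.290 and 0.292.

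In the EDA2R and NF-kB list 0 of 16 genes passed the edgeR test, 12 had values above 0 and the median was 0.12. Nfkb2, a subunit of the non-canonical pathway, averaged 18.5 ± 3.44 CPM in Sham against 24.3 ± 3.13 CPM in HLI, and Ikbkb, a kinase subunit of the canonical pathway, had 24.7 ± 1.65 and 29.7 ± 2.59 CPM. Of 11 genes of p53 and its targets, a class to which Eda2r belongs, 0 passed and the median was 0.26. It was 0.15 without HLI replicate 3, 0.16 without Sham and HLI replicates numbered 1 and 0.10 with rescaled TPM. Cdkn1a, the cell cycle inhibitor p21, had 24.8 ± 5.99 and 40.5 ± 17.0 CPM, and Aen, an exonuclease gene, had 35.8 ± 3.59 and 27.3 ± 6.11 CPM. The edgeR adjusted p of these 4 genes was 0.290.

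Denervation response genes had the highest median of the lists, 0.64 over 10 measured genes, of which 0 passed the edgeR test and 7 had values above 0. Without HLI replicate 3 that median was 0.18, and it was 0.34 with TPM rescaled by the median of ratios. Myog, a myogenic factor known to activate Trim63 and Fbxo32 after denervation, averaged 8.62 ± 2.61 CPM in Sham against 26.1 ± 22.8 CPM in HLI (log2 fold change 1.60, SE 0.46). Chrna1 and Chrnd, acetylcholine receptor subunits, had 20.3 ± 2.54 and 3.31 ± 0.55 CPM in Sham and 35.5 ± 18.8 and 5.55 ± 3.36 CPM in HLI. The edgeR adjusted p of these 3 genes lay between 0.290 and 0.293. In the bone morphogenetic protein and myostatin list, upstream of Fbxo30, 0 of 14 measured genes passed, 7 had values above 0 and the median was -0.04, with 0.07 without Sham and HLI replicates numbered 1. Smad1, a signal transducer of that pathway, had 25.7 ± 6.11 and 35.0 ± 4.41 CPM, and Id3, one of its target genes, had 23.3 ± 0.60 and 28.4 ± 4.41 CPM (edgeR adjusted p = 0.290 for each).

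Transcripts of reported substrates of MuRF1, atrogin-1 and CBL-B had the lowest median of the lists, -0.31 over 17 genes, of which 0 passed the edgeR test and 15 had values below 0. Ckm, muscle creatine kinase, averaged 18204 ± 3022 CPM in Sham against 12127 ± 3796 CPM in HLI, and Tcap, a Z-disc protein gene, had 833 ± 212 and 531 ± 198 CPM. Vim, an intermediate filament gene of many non-fibre cells, had 596 ± 146 and 940 ± 234 CPM (log2 fold change 0.66, SE 0.21). The edgeR adjusted p of these 3 genes lay between 0.290 and 0.292. Ckm, Myh4 and Ttn also stand among the 8 fibre markers, whose own median log2 fold change was -0.50. The substrate list is therefore not separate from the lower fibre sum. On unscaled TPM the medians of the other ligases, the FOXO regulators, the FOXO targets and the bone morphogenetic protein list were 0.11, 0.14, 0.05 and 0.09. That scaling placed the median of all genes at 0.19, so each of the 4 remained below that median.

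**Figure D5:**
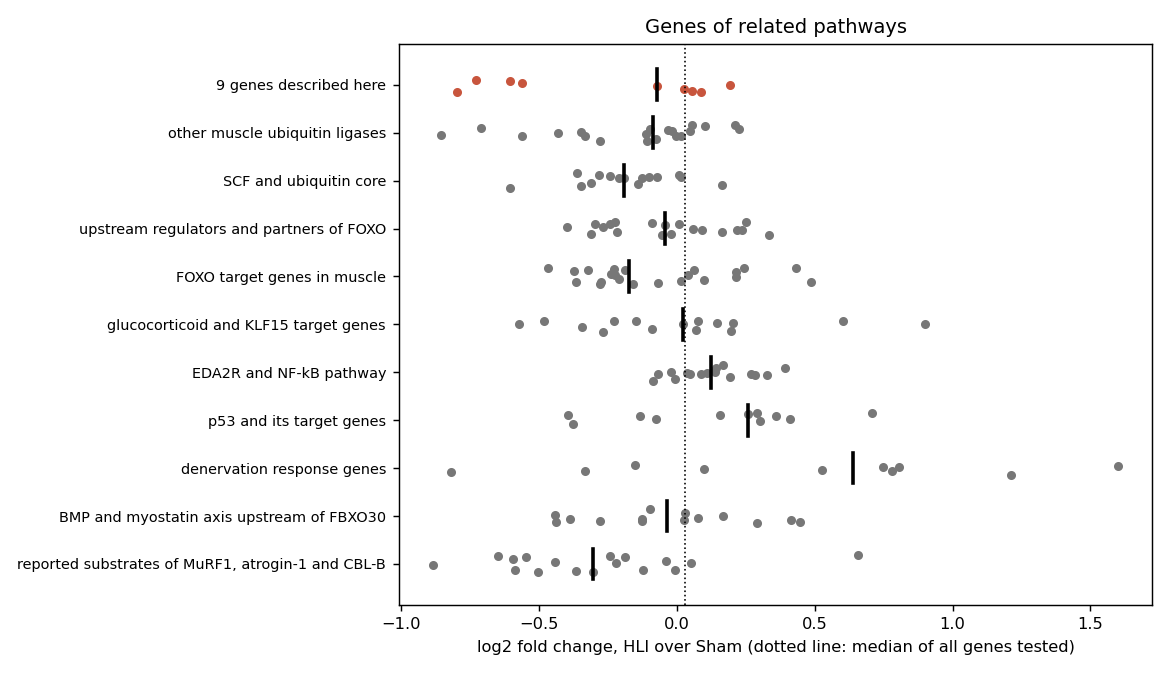
Log2 fold change of HLI over Sham (horizontal axis) for the 9 genes (red) and for the measured genes of 10 related lists (grey), 1 point per gene. Black bars are medians and the dotted line is the median of all 13404 genes tested, 0.03. The medians run from -0.31 for the reported ligase substrates to 0.64 for denervation response genes, and no gene shown passed the edgeR test.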

How the data were processed

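The authors deposited 1 table holding estimated counts and TPM for every gene in every sample, per the file headers. No normalization is recorded for the deposited estimated counts, and 93.4% are whole. TPM, as deposited, is relative to gene length, per the file headers. HISAT2 2.0, Bowtie 0.12.2 and the build mm8 are named, without roles, in the submitters' processing notes. How reads were counted, with which annotation and strand setting, is not given in the sources used here. Reads of overlapping or antisense genes therefore cannot be told apart. The series text speaks of cells and the sample protocol of adipose material, so the handling of the tissue is uncertain. The RefSeq promoters are of another build than the one named, and were used for their sequence alone.

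Counts were rounded and tested with edgeR 4.0.16 in R 4.3.3 (TMM, filterByExpr with minimum counts of 10 and 15 in total, no covariate), with calls at a Benjamini-Hochberg adjusted p under 0.05. DESeq2 1.42.0 and limma 3.58.1 on log2(TPM + 1) were alternatives. Exact permutation tests of log2 CPM (prior count 2) used all 252 assignments of samples to groups. On counts simulated for this comparison, with 13352 genes tested, edgeR recovered 80.0% of genes changed 2-fold and all of those changed 4-fold. Of its calls, 6.77% were false. The simulation gave every gene the same biological coefficient of variation, 0.252 as a fraction, and no difference in tissue composition. Within groups the 9 genes ran from 5.72% (Foxo3, Sham) to 50.7% (Trim63, HLI) on CPM, so these rates need not hold for each of them. The 9 genes and the lists were chosen with earlier results of these data known. From each list, up to 3 genes are named, those of smallest unadjusted p (under 0.05) whose mean in either group reached 1 CPM. Of these, 1 is not reported here. For Trim63, Fbxo32, Foxo1, Foxo3 and Eda2r the 3 genes of highest r are named. Correlations used 100000 resamples. No library was left out of the main results.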

Additional observations from a re-analysis of the deposited data

Results flagged for a closer look

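In 2 of the 18 sets of 5 libraries examined (9 genes in 2 groups), 1 library stood far from the others, where chance flags about 1 set in 20. Fbxo32 was at 265 CPM in HLI replicate 4, against 89.7 to 130.2 CPM in the other HLI libraries. Eda2r was at 47.3 CPM in Sham replicate 3, against 19.1 to 25.9 CPM in the other Sham libraries.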

How the results depend on the processing

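The count of 0 called genes held with the replicate number as a block, with each library left out, with no filter on low counts, with DESeq2 size factors in edgeR and in the 3 limma fits to TPM, and it was 48 with DESeq2. Without Sham and HLI replicates numbered 1, an alternative chosen after seeing the data, it was 54. None of the 9 genes was called in any of these fits, and the range of called genes with each library left out was 0 to 0, for all genes and for the 9. In the fit with the replicate block the log2 fold changes were -0.81 for Trim63, -0.79 for Fbxo32, -0.66 for Fbxo31 and -0.59 for Klf15, and the block changed no call. Deviations of same-numbered samples from their group means had r from -0.01 to 0.28, and those of differently numbered samples from -0.41 to 0.46. The labels do not say whether same-numbered samples were paired, and these values cannot decide it. These 4 genes and Fbxo30 and Foxo3 kept their sign in each of 19 alternatives, with Foxo3 at 6.24e-05 on rescaled TPM. With 1 library left out the values ran from -1.002 to -0.54 for Trim63, -1.15 to -0.64 for Fbxo32, -0.80 to -0.45 for Fbxo31 and -0.81 to -0.44 for Klf15.

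Among the single genes, the signs that turned were those of Cblb, Foxo1 and Eda2r, and that of the ratio of Trim63 to Fbxo32 turned too. The cause was not tested. List medians also turned: that of the glucocorticoid and KLF15 targets ran from -0.18 to 0.11 and that of the bone morphogenetic protein list from -0.14 to 0.03 with 1 library left out. On unscaled TPM the medians of the other ligases, FOXO regulators, FOXO targets and bone morphogenetic protein list were above 0. Cblb was at -0.04 without Sham replicate 5, -0.060 without HLI replicate 4 and -0.055 with TPM rescaled by the median of ratios, and ran from -0.060 to 0.090 with 1 library left out. Foxo1 was at 0.11 and 0.12 on log2(TPM + 1) and log2(TPM + 0.1), and at 0.50 relative to fibre markers. Eda2r was at -0.02, -0.09 and -0.07 without Sham replicate 4, HLI replicate 3 and HLI replicate 4, with a range from -0.091 to 0.376 over the libraries left out. The log2 ratio of Trim63 to Fbxo32 was 0.05, 0.10, 0.0038 and 0.0078 higher in HLI without Sham replicate 1 and HLI replicates 3, 4 and 5, and its range over the libraries left out was -0.177 to 0.099. The number of correlated pairs was 1 to 6 with each library left out, 3 after subtracting group means and 6 on log2(TPM + 1). It was lowest without HLI replicate 3. The depth of at least 167 counts per gene and library sets the counting error.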

Other observations

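Relatives of these genes, chosen after their values were seen, differed in level. Trim54 had 221 ± 37.8 TPM in Sham and 152 ± 45.6 TPM in HLI (SD, n = 5), a level near that of Trim63, whereas Trim55, which encodes MuRF2, had 47.2 ± 4.77 and 39.4 ± 8.41 TPM. Fbxo40, a muscle F-box gene whose product targets IRS1, had 187 ± 32.7 and 142 ± 39.3 TPM (log2 fold change -0.56, SE 0.25). Foxo4 had 37.2 ± 3.13 and 32.2 ± 2.81 TPM, above the levels of Foxo1 and Foxo3, and Foxo6 had 4.37 ± 0.82 and 3.93 ± 1.75 TPM. Cbl, the paralogue of Cblb, had 7.00 ± 1.52 TPM in Sham and 11.3 ± 3.96 TPM in HLI (log2 fold change 0.48, SE 0.19). Eda, the gene of the ligand of EDA2R, had 3.84 ± 0.64 and 4.84 ± 1.47 TPM. None of these 7 genes passed the edgeR test, with adjusted p from 0.290 to 0.701.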
